A study of Homo sapiens with 6 samples.

Results

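The nuclear genes for the enzymes of oxidative phosphorylation were examined in LM3 cells, an established human hepatocellular carcinoma (HCC) cell line, after stable knockdown of ZNF706. Members were taken by gene symbol. A gene belonged to the set when its symbol began with NDUF followed by A, B, C, S or V and a digit, was SDHA, SDHB, SDHC or SDHD, or began with UQCR, COX4 to COX8 or ATP5. Read-through genes with a hyphen, pseudogenes and COX6C were left out. The rule gave 84 of the 33007 genes in the table, 36 for complex I, 4 for complex II, 9 for complex III, 16 for complex IV and 19 for complex V. NDUFA4 and NDUFA4L2 were counted with complex IV, where the NDUFA4 protein is now placed.

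RNA-seq had been performed on 3 vector control samples and 3 ZNF706 knockdown samples, all from LM3 cells labelled wild type. The knockdown cells carried a short hairpin RNA against ZNF706 in the lentiviral pLKO.1 vector and had been selected with puromycin, so each group was a stably transduced population. The labels do not say whether the 3 samples of a group came from separate cultures, and p-values therefore measure only the spread between these samples, which may be technical. Control replicates 1 to 3 held 62684076, 64713764 and 63054445 counts, and knockdown replicates 1 to 3 held 68548419, 65861994 and 69057423. ZNF706 had 51.9, 55.1 and 54.7 CPM (counts per 1e6 counts, scaled by the TMM method) in the control samples and 33.5, 30.8 and 32.8 CPM in the knockdown samples. By edgeR's quasi-likelihood test this was -0.73 on the log2 scale (standard error, SE, 0.05, adjusted p = 3.7e-05), and the level fell by 39.9%. In bulk RNA, fewer cells that express a gene and less RNA per cell cannot be told apart.

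The epithelial keratins KRT8 and KRT18 were abundant in the control group, with 1540 ± 39.6 and 963 ± 46.9 CPM (SD, n = 3). Hepatocyte markers were low. ALB stood at 10.5 ± 6.47 CPM in the control group, AFP at 2.96 ± 1.59 CPM, APOA1 at 2.62 ± 0.814 CPM, HNF4A at 1.16 ± 0.756 CPM and TTR at 0.112 ± 0.0971 CPM (SD, n = 3 for each), and EPCAM, another epithelial marker, at 0.379 ± 0.218 CPM. None of these 5 hepatocyte markers passed the test between the groups, but all 5 had fitted values below 0, with a median log2 fold change of -0.699. Their summed level was 8.14, 20.8 and 23.2 CPM in the control samples and 11.6, 12.8 and 4.77 CPM in the knockdown samples, with overlap between the groups. APOA1 stood at -1.95 on the log2 scale (adjusted p = 0.25) and passed without knockdown replicate 3 (-6.39, adjusted p = 0.00082), and HNF4A stood at -1.15 (adjusted p = 0.13) and passed without control replicate 2 (-1.52, adjusted p = 0.036). Among 8 markers of other cell types, COL1A1 (collagen) was higher in the knockdown samples, with a log2 fold change of 0.20 (adjusted p = 0.0023), and CDH5 (endothelial cadherin) was lower, with a log2 fold change of -0.70 (adjusted p = 0.0014). The summed level of the 3 endothelial markers was 13.6, 14.9 and 16.3 CPM in the control samples and 11.2, 12.5 and 13.1 CPM in the knockdown samples. The other markers in these lists were COL1A2, DCN, PTPRC, CD14, PECAM1 and VWF. PECAM1 reached 6.72 ± 0.66 CPM (SD, n = 3) in the knockdown group, whereas COL1A2, DCN, PTPRC, CD14 and VWF all averaged below 1 CPM in both groups, and PTPRC had no counts in any knockdown sample. The part of these markers in the results below was not tested.

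Oxidative phosphorylation takes place on the inner mitochondrial membrane. Complex I (NADH dehydrogenase) and complex II (succinate dehydrogenase) pass electrons to ubiquinone, complex III (cytochrome bc1) hands them on to cytochrome c, and complex IV (cytochrome c oxidase) transfers them to oxygen. Complexes I, III and IV pump protons, and complex V (ATP synthase) uses the resulting gradient to make ATP. Mitochondrial DNA encodes 13 core subunits of complexes I, III, IV and V, while the other subunits, and all of complex II, are encoded in the nucleus. The nuclear genes are known to be served by shared transcription factors, among them nuclear respiratory factor 1 (NRF1), the ETS factor GABPA, YY1 and the estrogen-related receptors.

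RefSeq promoters (GRCh38.p14, from 250 bases before to 50 bases after the start) were at hand for 69 of the 84 genes. Each was searched on both strands for the letters of NRF1 (GCGC, any base, TGCGC), ETS (CCGGAAG), YY1 (AAGATGGCG), an E-box (CACGTG) and the core site of estrogen-related receptors (AAGGTCA), no string containing another. The NRF1 letters stood in 17 members (24.6%), against 7.0% of all 27305 genes with a promoter and 12.6% of the 11595 tested ones. The ETS letters stood in 21 members (30.4%, against 12.2% and 21.1%), those of YY1 in 9 (13%, against 2.1% and 4.3%) and the receptor core site in 11 (15.9%, against 4.8% and 3.9%). The E-box was found in 7 members (10.1%), and in 8.8% of all and 12.4% of the tested genes. A match of letters is a description of the sequence, not a binding site. The next 4 sequences are stretches before the start, each 5′ to 3′ on the strand of its gene with matched letters in capitals. NDUFB4 (chr3:120596171-120596305, plus strand) is shown for its NRF1 letters at 2 places and the receptor core site after them, and UQCR11 (chr19:1605493-1605662, minus strand) for its E-box and its ETS letters on both strands. Both genes also held NRF1 letters outside the stretches shown. NDUFB10 (chr16:1959388-1959507, plus strand) and NDUFC1 (chr4:139302552-139302691, minus strand), members with clear rises described below, held none of the 5 strings anywhere in their 300 bases. In all, 24 of the 69 members held none.
NDUFB4: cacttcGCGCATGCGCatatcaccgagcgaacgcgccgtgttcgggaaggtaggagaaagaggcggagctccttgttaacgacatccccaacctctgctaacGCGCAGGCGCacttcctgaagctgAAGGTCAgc
UQCR11: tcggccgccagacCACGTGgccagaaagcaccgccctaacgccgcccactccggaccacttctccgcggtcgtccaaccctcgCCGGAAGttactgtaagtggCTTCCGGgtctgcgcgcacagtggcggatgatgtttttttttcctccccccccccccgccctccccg
NDUFB10: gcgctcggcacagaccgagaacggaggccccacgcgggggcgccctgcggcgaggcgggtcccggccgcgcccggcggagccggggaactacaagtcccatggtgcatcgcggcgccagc
NDUFC1: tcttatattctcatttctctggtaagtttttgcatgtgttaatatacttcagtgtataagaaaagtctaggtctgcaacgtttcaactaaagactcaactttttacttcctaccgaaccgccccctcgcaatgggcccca

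Most members were expressed at a high level in both groups. The median level of the tested members was 95.4 CPM, against 11.1 CPM for all tested genes, and the set's share of all counts was 0.979%, 1.02% and 1.02% for control and 1.03%, 1.07% and 1.12% for knockdown replicates 1 to 3. Per length, by the authors' FPKM values, ATP5F1B (the catalytic beta subunit of ATP synthase) was the most abundant member, at 493 ± 2.9 FPKM (SD, n = 3) in the control group. The most abundant members of the other complexes were COX8A of complex IV at 224 ± 3.39 FPKM, NDUFS5 of complex I at 218 ± 5.92 FPKM, UQCRH of complex III at 161 ± 6.02 FPKM and SDHB of complex II at 43.7 ± 1.14 FPKM (SD, n = 3 for each). COX6A2, COX7A1, COX8C and ATP5MGL had at most 7 counts in any sample and were not tested, which left 80 members. The lengths behind the FPKM values were between 0.312 and 3.33 times the longest transcript of GENCODE release 29, so an order of levels between genes depends on the length used.

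Of the 80 tested members, 12 (15%) were higher in ZNF706 knockdown cells and 0 were lower at an adjusted p below 0.05 (edgeR's quasi-likelihood test, p-values adjusted by Benjamini-Hochberg over all 18390 genes tested). Over all tested genes, 22.8% were called by the same rule, 10.4% higher and 12.4% lower. For the 9474 genes with a mean of at least 10 CPM, to which 79 of the tested members belong, 36.0% were called, 13.5% higher and 22.5% lower. In this fit the members' share of rises was thus near that of abundant genes, while 0 members were called lower, against 22.5% of those genes. With counts scaled by library size alone, 26 members were higher and 0 lower, and over all genes 2742 were higher and 1518 lower (14.9% and 8.25%) in place of 1906 and 2286. At an unadjusted p below 0.05, 20 members were higher and 0 lower, where 34.6% of all tested genes passed (16.9% higher and 17.8% lower). DESeq2 called 16 members higher and 0 lower, and 29.7% of the 14959 genes to which it gave an adjusted p (13.9% higher and 15.7% lower). Fitted values were above 0 for 52 members and below 0 for 28, and the median log2 fold change was 0.049, against 0.010 over all tested genes. The count of 12 fell to 6 without control replicate 1, control replicate 2 or knockdown replicate 2, and to 7 without knockdown replicate 3, where COX6A1 and UQCRH passed as lower. NDUFB10, NDUFC1, SDHC and ATP5F1D were called by adjusted p in all 17 other settings. With an unadjusted p below 0.05 and a log2 fold change of 0.3 or more in size, thresholds that the study applied to DESeq2 output, the edgeR fit gave 4 members higher (NDUFB10, NDUFC1, ATP5ME and COX6B2) and 0 lower, against 15.5% of all tested genes (9.61% higher and 5.88% lower). DESeq2 gave 5 higher, the same 4 and ATP5F1D, and 0 lower, against 9.39% of the 31287 genes for which it gave a p without a filter on low counts (5.92% higher and 3.47% lower). The changes were small. Apart from COX6B2, which is expressed at a very low level, no member had a fitted change above 0.36 or below -0.19 on the log2 scale. For 64 members (80.0%) the whole 95% interval lay between -0.3 and 0.3, as it did for 30.7% of all tested genes, many of them less abundant. The control and knockdown values of 20 members (25.0%) did not overlap, 18 higher and 2 lower, against 39.4% of all tested genes (19.7% higher and 19.7% lower).

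**Figure D1:**
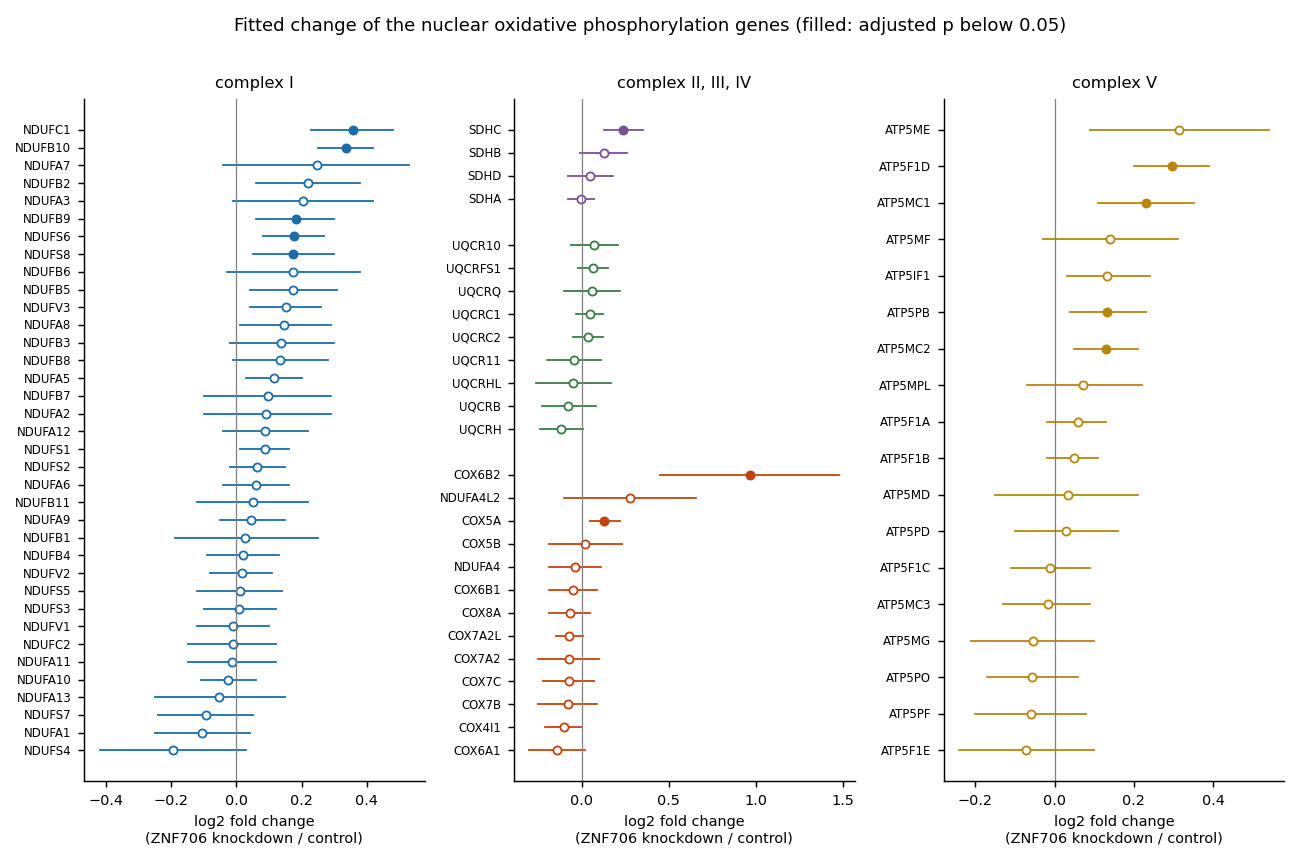
Fitted log2 fold change (ZNF706 knockdown against control, x axis) with its 95% interval for each of the 80 tested members, grouped by complex and sorted within it, with filled circles for the 12 members with an adjusted p below 0.05. The x axis of the middle panel is wider, since it holds COX6B2 at 0.97, and 9 of the 13 circles of complex IV lie left of 0.

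The members also moved together between samples of the same group. In control replicate 1, only 15 of the 80 members lay above their group mean, and in knockdown replicate 1 only 10 did. In knockdown replicate 3 it was 76. The median deviation from the group mean was -0.057, 0.017 and 0.044 on the log2 scale in control replicates 1, 2 and 3 and -0.08, -0.002 and 0.079 in knockdown replicates 1, 2 and 3. This spread within a group is wider than the median difference between the groups. Without knockdown replicate 3 the members' median log2 fold change was -0.005, with 39 of 80 above 0, and without knockdown replicate 1 it was 0.084, with 63 above 0. Without knockdown replicate 3 the medians of complexes I, II, III, IV and V were 0.039, 0.03, -0.023, -0.103 and 0.008. The summed level of all members was 9914.4, 10378 and 10491 CPM in the control samples and 10048, 10490 and 11077 CPM in the knockdown samples, a rise of the mean by 2.70% in which the groups overlap. The same order of replicates was seen in the mitochondrial ribosomal protein genes, with 5005.9, 5165.8 and 5323.8 CPM for control and 5078.7, 5274 and 5490.8 CPM for knockdown. Assembly factors had it too, with 1643.7, 1703.3 and 1705.7 CPM for control and 1723.3, 1778.9 and 1815.9 CPM for knockdown. The subunits coded by mitochondrial DNA did not show this order.

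**Figure D2:**
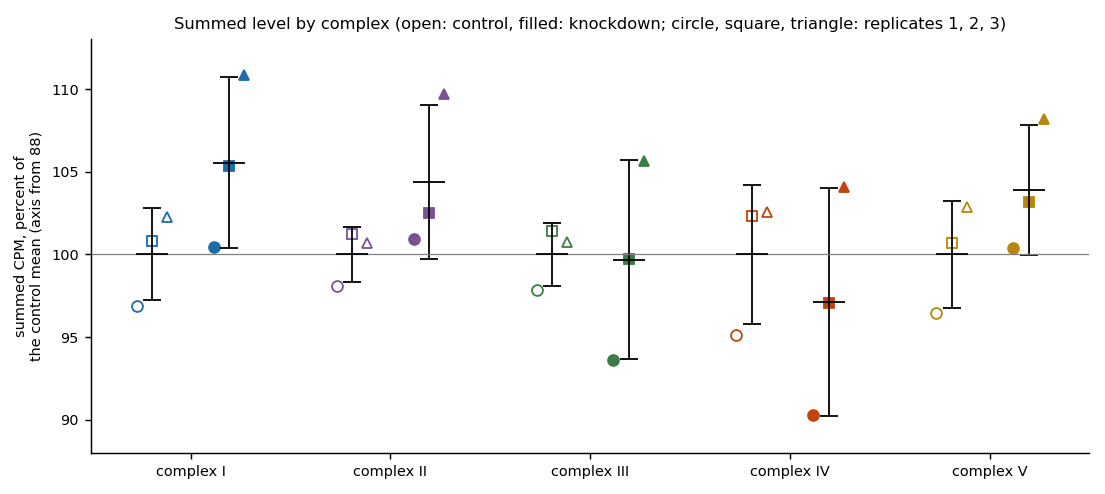
Summed CPM of the members of each complex in every sample, in percent of the control mean of that complex (y axis, which starts at 88), with open symbols for control and filled symbols for ZNF706 knockdown samples, and bars for the mean ± SD of 3 samples. In every complex replicate 1 is the lowest sample of its group and knockdown replicate 3 the highest of all 6.

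Complex I held 5 of the 12 rises, 13.9% of its 36 members. Among all tested genes with at least 10 CPM, 13.5% were called higher. NDUFC1, NDUFB10, NDUFB9 and NDUFS6, all accessory subunits, and NDUFS8, a core subunit that carries iron-sulfur clusters, were higher in ZNF706 knockdown cells by between 0.17 and 0.36 on the log2 scale. The other 31 members did not pass the test, and the median of the 36 was 0.088, with 28 above 0. The summed level of complex I was 2551.6, 2655.3 and 2692.9 CPM in the control samples and 2645.6, 2773.5 and 2918.4 CPM in the knockdown samples. Knockdown replicate 1 lay below 2 of the control samples.

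NDUFC1 (ENSG00000109390, chromosome 4, 139266880 to 139302551, minus strand), a subunit of the membrane arm, had 34.3, 31.3 and 34.5 CPM in the control samples and 43.1, 43.6 and 41.4 CPM in the knockdown samples. All knockdown values lay above all control values, with a log2 fold change of 0.36 (SE 0.055, adjusted p = 0.0016). NDUFB10 (ENSG00000140990, chromosome 16, 1959538 to 1961975, plus strand), also of the membrane arm, had 74.3, 70.0 and 73.6 CPM in the control samples and 90.4, 91.9 and 92.5 CPM in the knockdown samples. The groups were well apart, with a log2 fold change of 0.33 (SE 0.037, adjusted p = 0.0003), the smallest p among the members. Both genes passed the test whichever sample was left out, with log2 fold changes of 0.31 to 0.38 for NDUFC1 and 0.31 to 0.35 for NDUFB10.

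The other 3 rises were smaller and depended on single samples. NDUFB9 had 97.7, 101 and 101 CPM in the control samples and 107, 109 and 124 CPM in the knockdown samples, with knockdown replicate 3 well above the rest (log2 fold change 0.18, SE 0.054, adjusted p = 0.035). NDUFS6, a zinc-binding subunit of the part that oxidises NADH, had 127, 123 and 125 CPM in the control samples and 133, 142 and 149 CPM in the knockdown samples. The groups did not overlap (log2 fold change 0.18, SE 0.043, adjusted p = 0.017). NDUFS8 had 55.0, 57.1 and 63.2 CPM in the control samples and 63.0, 67.4 and 67.4 CPM in the knockdown samples, and control replicate 3 lay just above the lowest knockdown sample (log2 fold change 0.17, SE 0.055, adjusted p = 0.047). NDUFB9 kept its call only without knockdown replicate 1, where its log2 fold change was 0.22, and fell to 0.12 without knockdown replicate 3. NDUFS6 lost it without control replicate 2, control replicate 3 or knockdown replicate 2 (adjusted p up to 0.068), and NDUFS8 without control replicate 1, control replicate 2, knockdown replicate 2 or knockdown replicate 3 (up to 0.16). Exons of TATDN1 and MTSS1 overlap those of NDUFB9 on the opposite strand, with 15.2% and 10.6% as many counts, and since the use of strand in counting is not stated, their reads cannot be told apart. TATDN1 and MTSS1 had log2 fold changes of 0.23 (adjusted p = 0.087) and 0.27 (adjusted p = 0.19), the same direction as NDUFB9. In all, 22 tested members, 3 of them called (NDUFB9, ATP5PB and COX6B2), had an overlapping gene with at least 10% as many counts.

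Within complex I the NDUFB genes code for accessory subunits of the distal membrane arm. Their fitted values were above 0 in 11 of 11 cases, with a median of 0.137, as were those of 9442 of all 18390 tested genes. Only NDUFB9 and NDUFB10 passed the test (18.2%, where 13.5% of genes with at least 10 CPM were called higher). With each sample left out, the lowest values of NDUFB1, NDUFB4, NDUFB7 and NDUFB11 were -0.04, -0.01, -0.02 and -0.02. The summed level of the 11 NDUFB genes was 653, 685 and 711 CPM in the control samples and 705, 764 and 803 CPM in the knockdown samples. The mean was 10.9% higher, and knockdown replicate 1 lay below control replicate 3. NDUFB2 had a log2 fold change of 0.22 with no overlap between the groups, and its adjusted p was 0.053. It passed as higher by DESeq2 (adjusted p = 0.015) and in the edgeR fit with the replicate block (adjusted p = 0.0072). Exons of BRAF on the opposite strand and of ADCK2 on the same strand overlap those of NDUFB2. They had 62.3% and 48.8% as many counts, and these reads cannot be fully separated. NDUFB5, at 0.17 (adjusted p = 0.07), also passed by DESeq2 (adjusted p = 0.017) and with the replicate block (adjusted p = 0.025). The 7 core subunits coded in the nucleus, which hold the flavin and the iron-sulfur clusters, had a median of 0.016, and NDUFS8 alone of them passed the test. NDUFS1, the largest of these, had 139, 139 and 137 CPM in the control samples and 143, 147 and 150 CPM in the knockdown samples, a fitted value of 0.09 that did not pass the test (adjusted p = 0.092). NDUFS5, the most abundant member of complex I per length, had a log2 fold change of 0.01 with a 95% interval from -0.12 to 0.14. The lowest fitted value of complex I was -0.19, for NDUFS4, an accessory subunit, with a 95% interval from -0.42 to 0.03.

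In complex II, SDHC was higher in ZNF706 knockdown cells and the other 3 subunits did not pass the test. SDHC (ENSG00000143252, chromosome 1, 161314381 to 161363189, plus strand), which anchors the enzyme in the membrane together with SDHD, had 87.2, 90.2 and 95.8 CPM in the control samples and 103, 105 and 115 CPM in the knockdown samples. The groups did not overlap, with a log2 fold change of 0.24 (SE 0.051, adjusted p = 0.0083), and the call held with each sample left out (0.19 to 0.28). SDHA, the flavin-bearing catalytic subunit, had 356, 355 and 340 CPM in the control samples and 350, 340 and 357 CPM in the knockdown samples. These values were interleaved, and the 95% interval of its log2 fold change ran from -0.08 to 0.07. SDHB, the iron-sulfur subunit, had a log2 fold change of 0.13 with an interval from -0.01 to 0.26, and SDHD one of 0.05 with an interval from -0.08 to 0.18. By edgeR, SDHB passed as higher without knockdown replicate 1 (0.189, adjusted p = 0.033) and with library size alone (0.181, adjusted p = 0.043). Rows for pseudogenes of SDHA held 7.96% of the counts on SDHA and its copies, the largest such share among the members, and reads could have been split between them.

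In complex III none of the 9 members passed the test by edgeR, in either direction, and none had an unadjusted p below 0.05. DESeq2 called none either, whereas UQCRC1 and UQCRFS1 passed as higher with library size alone (log2 fold changes 0.103 and 0.119, adjusted p = 0.042 and 0.037) and in both limma fits, and UQCRH as lower with the length trend removed (-0.172, adjusted p = 0.021). The fitted values ran from -0.12 to 0.07, with a median of 0.035, and all 9 had 95% intervals within -0.3 to 0.3. UQCRH, the hinge protein that helps cytochrome c bind, had 247, 260 and 244 CPM in the control samples and 211, 231 and 250 CPM in the knockdown samples. Knockdown replicates 1 and 2 lay below all control samples and knockdown replicate 3 did not (log2 fold change -0.12, SE 0.057, adjusted p = 0.18). Without knockdown replicate 3 it was -0.18 and passed the test. UQCRC1, one of the large core proteins, had 307, 309 and 312 CPM in the control samples and 310, 320 and 331 CPM in the knockdown samples.

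Complex IV was the only complex with a median below 0, at -0.069, with fitted values below 0 for 9 of its 13 tested members, but the median was 0.012 without knockdown replicate 1, -0.016 with library size alone, -0.023 with limma on log2(FPKM + 0.1) and -0.031 with the GC trend removed, and that of complex III was -0.023 without knockdown replicate 3. None of the 9 passed the test. COX5A and COX6B2 were higher, 15.4% of the 13. COX5A, a subunit on the matrix side, had 255, 275 and 272 CPM in the control samples and 290, 287 and 300 CPM in the knockdown samples. The groups did not overlap and the difference was small (log2 fold change 0.13, SE 0.038, adjusted p = 0.034), and the call was lost whichever sample was left out, with an adjusted p of up to 0.12. COX4I1, a large nuclear subunit, showed the opposite arrangement, with 232, 242 and 231 CPM in the control samples and 203, 225 and 228 CPM in the knockdown samples. All its knockdown values lay below all control values, and it did not pass the test (log2 fold change -0.10, SE 0.047, adjusted p = 0.15). COX6A1 had the lowest fitted value of complex IV, at -0.14 (95% interval -0.30 to 0.02). Its level was 188 CPM in knockdown replicate 1 and 233 CPM in knockdown replicate 3, against 223 to 245 CPM in the control samples, and without knockdown replicate 3 its value was -0.21 and passed the test. By edgeR it also passed as lower with the replicate block (-0.144, adjusted p = 0.031) and with the length trend removed (-0.194, adjusted p = 0.025).

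The summed level of complex IV was 1661.8, 1787.9 and 1791.3 CPM in the control samples and 1577.1, 1695.8 and 1818.1 CPM in the knockdown samples. Its lowest and its highest values were both in the knockdown group. COX6B1, COX7A2, COX7A2L, COX7B, COX8A and NDUFA4 had fitted values between -0.08 and -0.04, each with a 95% interval that reached 0 or above. For COX7A2L, which takes part in joining complexes into supercomplexes, the knockdown values of 136, 135 and 142 CPM and the control values of 143, 147 and 142 CPM did not overlap by a narrow margin, with an adjusted p of 0.20. It and COX4I1 were the 2 members whose knockdown values all lay below the control values.

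Complex V held 4 of the 12 rises, 22.2% of its tested members, against 13.5% of all tested genes with at least 10 CPM. ATP5F1D, ATP5MC1, ATP5MC2 and ATP5PB were higher in ZNF706 knockdown cells by 0.13 to 0.30 on the log2 scale, and the other 14 tested members did not pass the test. ATP5F1D (ENSG00000099624, chromosome 19, 1241746 to 1244825, plus strand), the delta subunit of the central stalk, had 119, 129 and 132 CPM in the control samples and 158, 154 and 154 CPM in the knockdown samples. The groups were well separated, with a log2 fold change of 0.30 (SE 0.043, adjusted p = 0.0012), and the call held with each sample left out (0.25 to 0.32). The other subunits of the catalytic head and central stalk did not pass the test. ATP5F1B had 1260, 1290 and 1290 CPM in the control samples and 1290, 1310 and 1370 CPM in the knockdown samples (log2 fold change 0.05, 95% interval -0.02 to 0.11). ATP5F1A, the alpha subunit, had a log2 fold change of 0.06 and ATP5F1C, the gamma subunit, one of -0.01, with intervals from -0.02 to 0.13 and from -0.11 to 0.09.

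ATP5PB, subunit b of the peripheral stalk, had 236, 247 and 264 CPM in the control samples and 269, 274 and 275 CPM in the knockdown samples. It lay just inside the threshold (log2 fold change 0.13, SE 0.042, adjusted p = 0.049) and kept its call only without control replicate 3, where its log2 fold change was 0.17. WDR77, whose exons overlap those of ATP5PB on the opposite strand with 33.7% as many counts, had a log2 fold change of 0.05 and did not pass the test. ATP5ME, subunit e in the membrane, had a fitted value of 0.31 with an adjusted p of 0.052, just outside the threshold. It passed as higher by DESeq2 (adjusted p = 0.013). It also passed by edgeR with the replicate block (adjusted p = 0.021) and with the length trend removed (adjusted p = 0.037). The groups overlapped, since control replicate 3 and knockdown replicate 1 both stood at 22.9 CPM when rounded to 3 digits. Exons of MYL5 overlap those of ATP5ME on the opposite strand, with 21.7% as many counts. ATP5IF1, the inhibitor that stops the enzyme from running in reverse, had 83.2, 78.1 and 80.3 CPM in the control samples and 87.2, 84.0 and 93.4 CPM in the knockdown samples. The groups did not overlap, and it did not pass the test (log2 fold change 0.13, SE 0.046, adjusted p = 0.068). ATP5IF1 passed as higher by DESeq2 (adjusted p = 0.045) and by edgeR with the replicate block (adjusted p = 0.048).

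**Figure D3:**
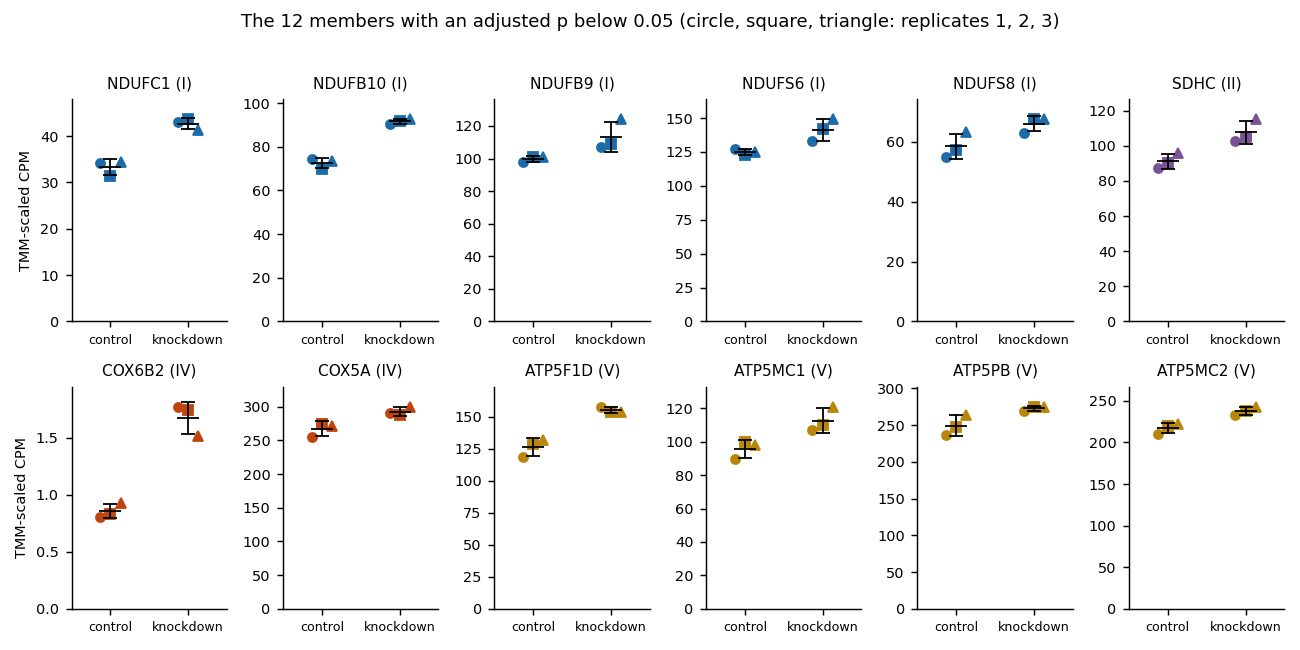
TMM-scaled CPM (y axes, each from 0) of the 12 members with an adjusted p below 0.05 in each sample, with bars for the mean ± SD of 3 samples and the complex in brackets. Relative to its level COX6B2 shows the widest gap between the groups, from 0.928 to 1.51 CPM, followed by NDUFB10, NDUFC1 and ATP5F1D, whereas for NDUFS8 control replicate 3 reaches the knockdown values.

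Some subunits are coded by more than 1 gene. ATP5MC1, ATP5MC2 and ATP5MC3 code for the same mature c subunit of the membrane ring with different import sequences. ATP5MC1 had 89.8, 99.7 and 98.0 CPM in the control samples and 107, 110 and 121 CPM in the knockdown samples (log2 fold change 0.23, SE 0.055, adjusted p = 0.014). ATP5MC2 had 210, 220 and 222 CPM in the control samples and 233, 238 and 243 CPM in the knockdown samples (log2 fold change 0.13, SE 0.035, adjusted p = 0.023). Neither gene's groups overlapped, while the values of ATP5MC3 were interleaved, with 279, 309 and 312 CPM in the control samples and 284, 296 and 310 CPM in the knockdown samples (log2 fold change -0.02, 95% interval -0.13 to 0.09). By FPKM, ATP5MC1 made up 26.8% ± 0.341 of the 3 genes in the control group and 29.1% ± 0.748 in the knockdown group, and ATP5MC3 32.4% ± 0.499 and 29.6% ± 0.198 (SD, n = 3). For both genes the shares of the groups did not overlap, and an exact permutation test with 3 against 3 samples cannot give a two-sided p below 0.1. ATP5MC1 lost its call without control replicate 1 (adjusted p = 0.053), and ATP5MC2 without control replicate 1, control replicate 2, knockdown replicate 2 or knockdown replicate 3 (up to 0.092).

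The isoforms of complex IV that are known from muscle or testis were at or near 0. COX6A2 and COX7A1 had no counts in any control sample and at most 4 in a knockdown sample, COX8C had 7 counts in control replicate 3 and none elsewhere, and ATP5MGL, a copy of the ATP5MG gene, had 3 counts in knockdown replicate 1 alone. COX6B2, the testis form of COX6B, was low and rose. Control replicates 1 to 3 had 50, 53 and 57 counts and knockdown replicates 1 to 3 had 124, 117 and 106, or 0.807, 0.833 and 0.928 CPM against 1.77, 1.74 and 1.51 CPM. This was a log2 fold change of 0.97 (SE 0.23, adjusted p = 0.014) and the call was lost without knockdown replicate 2 (adjusted p = 0.053). AC020922 overlaps it on the same strand with 38.9% as many counts, so the reads of both cannot be fully separated. By FPKM, COX6B2 was 0.404% ± 0.0333 of COX6B1 and COX6B2 together in the control group and 0.856% ± 0.146 in the knockdown group (SD, n = 3), so COX6B1 supplied nearly all of this subunit's RNA in every sample.

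NDUFA4L2, a relative of NDUFA4 known to be induced by hypoxia, had 9.80, 8.90 and 9.33 CPM in the control samples and 12.4, 8.06 and 13.5 CPM in the knockdown samples. Knockdown replicate 2 was the lowest of all 6 samples and knockdown replicate 3 the highest, and the 95% interval of the log2 fold change ran from -0.10 to 0.66. Without knockdown replicate 2 the gene passed the test. Exons of SHMT2 overlap those of NDUFA4L2 on the opposite strand with 2160% as many counts, and SHMT2 was lower in the knockdown samples (log2 fold change -0.16, adjusted p = 0.03), so reads counted for NDUFA4L2 may include some of SHMT2. UQCRHL, a near copy of UQCRH whose reads may be shared with it, made up 3.22% ± 0.267 of both genes by FPKM in the control group and 3.37% ± 0.127 in the knockdown group (SD, n = 3).

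The split of the members by promoter letters, made after their values had been seen, is given without a test. Of the 34 tested members with NRF1 or ETS letters, 0 were called by edgeR, and their median log2 fold change was 0.024, with 20 above 0. Of the 33 without either string, 9 were called, all higher, and the median was 0.131, with 24 above 0. The called members SDHC, ATP5F1D and NDUFB9 had no promoter at hand and are in neither group. The count of 0 did not hold in every setting. DESeq2 called 1 member with such letters (ATP5ME) and 11 without, the replicate block 3 and 11, the fit with the length trend removed 4 and 9, and library size alone and limma on log2(FPKM + 0.1) 7 and 13 each. Over all tested genes with a promoter in the table, 11.7% of those with such letters and 12.5% of those without were called higher, and 17.6% and 14.9% lower. NDUFB4 and UQCR11, whose promoters are shown above, had log2 fold changes of 0.02 (95% interval -0.09 to 0.13) and -0.05 (95% interval -0.20 to 0.11). Among the 9 called members in the table, ATP5MC1 and ATP5PB held an E-box and NDUFS6 the receptor core site, and the other 6 held none of the 5 strings.

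The transcription factors and cofactors known for these genes were also measured. Of the 11 in the list, 6 were lower and 1 was higher in ZNF706 knockdown cells, with a median log2 fold change of -0.194. Over all tested genes 12.4% were lower and 10.4% higher, and over those with at least 10 CPM, to which 10 of the 11 belong, 22.5% and 13.5%. NRF1 itself had 23.9, 24.1 and 24.6 CPM in the control samples and 16.4, 17.2 and 17.8 CPM in the knockdown samples, well below them (log2 fold change -0.50, adjusted p = 0.001). GABPA fell from 79.3 ± 4.38 to 66.2 ± 0.841 CPM, PPRC1, a cofactor related to PGC-1, from 101 ± 4.3 to 86.5 ± 1.33 CPM, and YY1 from 219 ± 5.9 to 194 ± 2.4 CPM (SD, n = 3). TFAM and TFB2M, which start transcription on mitochondrial DNA, fell from 169 ± 2.72 to 148 ± 3.39 CPM and from 84.0 ± 1.85 to 72.2 ± 1.46 CPM, whereas POLRMT, the mitochondrial RNA polymerase, rose from 61.4 ± 3.28 to 74.2 ± 0.422 CPM (SD, n = 3). All 7 calls held with each sample left out. PPARGC1A, PPARGC1B, ESRRA and TFB1M did not pass the test, with log2 fold changes of -0.23, 0.11, -0.01 and 0.22. Exons of GABPA and ATP5PF overlap on opposite strands, and ATP5PF, a stalk subunit, had a fitted value of -0.06 (95% interval -0.20 to 0.08).

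The subunits coded by mitochondrial DNA were split between genes that were lower and genes that did not pass the test. Of the 13, 6 were lower and 0 higher in ZNF706 knockdown cells, where 22.5% of all genes with at least 10 CPM were lower, a class that holds all 13. Their median log2 fold change was -0.149, MT-ND2 and MT-CO2 had fitted values above 0 (0.03 and 0.08), and the 13 together took 4.8%, 4.59% and 4.86% of all counts for control and 4.58%, 4.57% and 4.34% for knockdown replicates 1 to 3. In complex I, MT-ND6 had 349, 313 and 329 CPM in the control samples and 245, 252 and 266 CPM in the knockdown samples (log2 fold change -0.38, adjusted p = 0.00056), and MT-ND1 and MT-ND5 had log2 fold changes of -0.36 and -0.28, the latter with a call that was lost in 4 of the 6 fits with a sample left out and with library size alone (adjusted p = 0.053). For the nuclear members of complex I over the same samples the median was 0.088 and none was called lower. The difference between the 2 sets was not tested.

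Assembly factors, which build the complexes without staying in them, had 10 rises and 1 fall among 52 tested genes (21.2% called, against 22.8% of all tested genes and 36.0% of those with at least 10 CPM), with a median log2 fold change of 0.097. The factors of complex I held 6 of the rises among 17 genes, and those of complex III 3 among 6. BCS1L, which inserts the iron-sulfur protein UQCRFS1 into complex III, had 21.4, 20.3 and 22.6 CPM in the control samples and 31.6, 29.9 and 29.2 CPM in the knockdown samples (log2 fold change 0.50, adjusted p = 0.00095). UQCRFS1 itself had a log2 fold change of 0.06 (95% interval -0.02 to 0.15). NDUFAF3 and NDUFAF7, factors of early complex I assembly, had log2 fold changes of 0.41 (adjusted p = 0.00073) and 0.36 (adjusted p = 0.0032). TMEM70, a factor of ATP synthase assembly, had 54.7, 53.7 and 53.9 CPM in the control samples and 45.9, 43.3 and 47.9 CPM in the knockdown samples, and was the single fall (log2 fold change -0.24, adjusted p = 0.0048). These 4 calls held with each sample left out. In complex IV, COX10 was the only one of 21 factors to pass the test. Without control replicate 2 or knockdown replicate 2 the count of called assembly factors was 7 in place of 11.

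**Figure D4:**
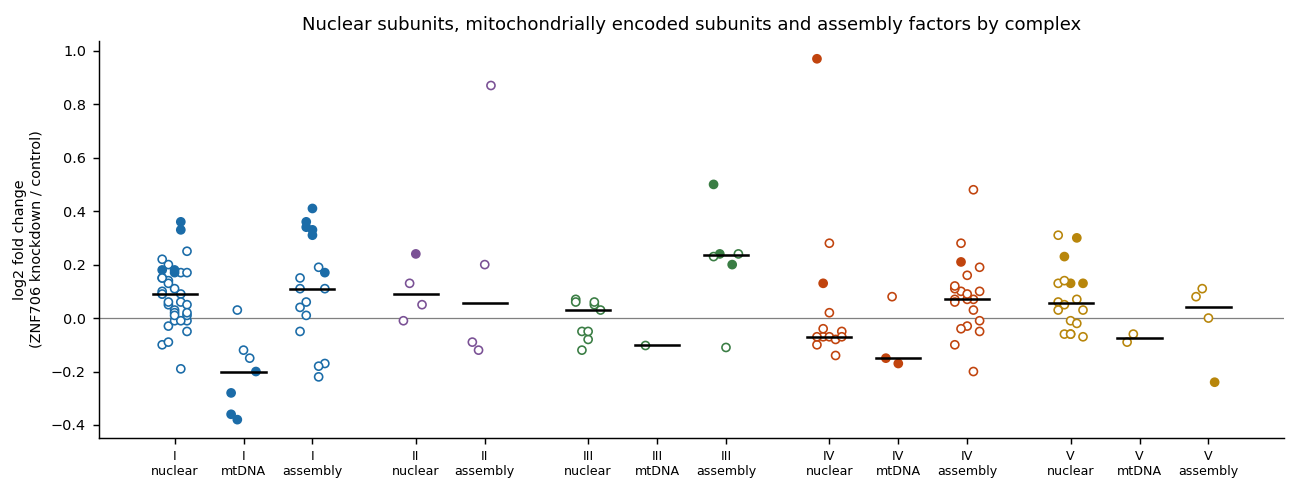
Fitted log2 fold change (y axis, ZNF706 knockdown against control) of the tested nuclear subunits, the subunits coded by mitochondrial DNA and the assembly factors of each complex, with filled circles for an adjusted p below 0.05 and black lines at the medians. The mitochondrially coded subunits of complex I have a median below 0, while the nuclear subunits and the assembly factors of complex I have medians above 0.

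A further list held genes that carry electrons or belong to the chain but fall outside the symbol rule. CYC1 is cytochrome c1, a core subunit of complex III, NDUFAB1 is a subunit of complex I, CYCS is the mobile cytochrome c, and ETFA, ETFB and ETFDH bring electrons from fatty acid oxidation to ubiquinone. None of these 6 genes passed the test by edgeR, 1 had an unadjusted p below 0.05, and all 6 had 95% intervals within -0.3 to 0.3. CYCS stood at 428 ± 7.57 CPM in control and 410 ± 5.96 CPM in knockdown samples (SD, n = 3). Of 13 enzymes of the citric acid cycle, 3 rose and 2 fell (38.5% called), near the 36.0% of all genes with at least 10 CPM, as all 13 have. IDH3A and IDH3B code for subunits of the same isocitrate dehydrogenase, and IDH3A fell (log2 fold change -0.28, adjusted p = 0.00098) while IDH3B rose (0.27, adjusted p = 0.0011). OGDH rose (0.26, adjusted p = 0.0012), as did DLD (0.14, adjusted p = 0.03), and DLST, another component of the same complex, fell (-0.14, adjusted p = 0.019). The calls of DLST and DLD depended on single samples, with adjusted p up to 0.082 and 0.11, and with library size alone DLST lost its call (adjusted p = 0.13).

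The nuclear genes of the mitochondrial ribosome, another large set imported into the organelle, are given for comparison. Of 78 tested, 10 were higher and 3 lower (16.7% called), with a median log2 fold change of 0.042 and 55 above 0. The nuclear oxidative phosphorylation genes had 12 higher and 0 lower among 80 (15%), a median of 0.049 and 52 above 0. Over all tested genes 22.8% were called, 10.4% higher and 12.4% lower. For genes with at least 10 CPM, to which 77 of the 78 belong, 36.0% were called, 13.5% higher and 22.5% lower. The difference between the 2 sets was not tested.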

How the data were processed

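Total RNA of LM3 cells was sequenced on an Illumina NovaSeq system and mapped by the authors with HISAT2. The submitters' processing notes name cutadapt 1.9, FastQC and GRCh38. The counting program, its use of strand and the annotation release are not given in the sources used here. The authors deposited raw counts per gene, without normalization, and FPKM values, which are relative to gene length and to the size of the library. The authors' own comparisons and annotation in the table were not used.

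Groups follow the treatment labels. From the counts, filterByExpr, TMM scaling and the quasi-likelihood test of edgeR 4.0.16 (R 4.3.3) were applied to 18390 genes with a term for the group only, with Benjamini-Hochberg adjustment over all of them. Each standard error is the size of the log2 fold change over the square root of F, and 95% intervals use the t distribution of the fit. Alternatives were DESeq2 1.42.0, its size factors, library size alone, a minimum mean count of 50 or no filter, limma 3.58.1 on log2(FPKM + 0.1) or log2(FPKM + 1) where the mean FPKM reached 1, a replicate term, length and GC trends (GENCODE release 29), added pseudogene counts and each sample left out.

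The genes named are ZNF706, up to 4 largest rises and falls per complex among called members, the most abundant member per complex by FPKM, members with paralogs, ATP5IF1, the SDH subunits, up to 3 largest called rises and falls of the other lists (assembly factors, mitochondrially encoded subunits and citric acid cycle) and all regulators, electron carriers and cell type markers. Others, such as NDUFS8, NDUFB2 and ATP5ME, were chosen after their values were seen. The members and lists were chosen with earlier results of these data known.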

Additional observations from a re-analysis of the deposited data

How the results depend on the processing

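Some counts depended on the processing. Against 12 members called, library size alone in place of TMM gave 26, limma on log2(FPKM + 0.1) gave 25 with 19 assembly factors called (2279 genes higher and 1539 lower), and the fit with no filter on low counts gave 5, all higher, with 7 assembly factors in place of 11. Library size alone called 18 assembly factors and moved the median of all genes from 0.010 to 0.063, that of all members from 0.049 to 0.103 and those of complexes I to V from 0.088, 0.088, 0.035, -0.069 and 0.053 to 0.141, 0.142, 0.088, -0.016 and 0.107, and limma on log2(FPKM + 0.1) gave 0.135, 0.135, 0.083, -0.023 and 0.102. The GC trend moved complex III to 0.005, and the length trend moved all members to 0.027. With the length trend removed, 16 members were called, 2 of them lower (COX6A1 and UQCRH), and 10 of the 12 calls were kept, COX5A (0.08, adjusted p = 0.11) and ATP5PB (0.114, adjusted p = 0.073) losing theirs. With the GC trend removed NDUFS8 lost its call (adjusted p = 0.17). With an unadjusted p below 0.05 and a log2 fold change of 0.3 or more in size, 4 members were called by edgeR and 5 by DESeq2 (a combination chosen after seeing the data), all higher. Leaving out each sample in turn gave 6 to 15 members called, 6 to 15 called higher and 0 to 2 lower, 2648 to 3424 genes called in all and 7 to 10 assembly factors. DESeq2, its size factors, a mean count of at least 50, the GC trend (an alternative chosen after seeing the data) and added pseudogene counts gave 12 to 17 members called, none lower. The cause of these shifts was not tested.

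The replicate numbers were not used as pairs, since over all tested genes the deviations of same-numbered samples correlated at 0.054, -0.004 and 0.084. The members' own median deviations rose from replicate 1 to replicate 3 in both groups. For this set the correlations over all genes therefore cannot decide whether the samples are paired. A fit with the replicate block called 19 members, 18 higher and 1 lower (COX6A1), and 14 assembly factors.

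Fitted values near 0 changed sign for some genes that did not pass the test: with library size alone COX6B1 at 0.0056, NDUFA4 at 0.015, UQCRHL at 0.0061, ATP5MC3 at 0.038, SDHA at 0.048, ESRRA at 0.047, TTR at 0.0012 and DCN at 0.0097, with limma on log2(FPKM + 0.1) NDUFA4 at 0.011, UQCRHL at 0.00082, ATP5MC3 at 0.033, SDHA at 0.043 and ESRRA at 0.042, with limma on log2(FPKM + 1) NDUFA4 at 0.01, UQCRHL at 0.0007, ATP5MC3 at 0.032, SDHA at 0.042 and ESRRA at 0.04, with the GC trend removed NDUFA4 at 0.02, ATP5MC3 at 0.037, CYC1 at -0.041, KRT8 at -0.041 and DCN at 0.052, and with the length trend removed ATP5MC3 at 0.0097, SDHA at 0.027, NDUFAB1 at -0.022 and DCN at 0.023. With each sample left out, the ranges that crossed 0 were NDUFS5 -0.061 to 0.048, COX6B1 -0.103 to 0.03, COX7B -0.157 to 0.012, NDUFA4 -0.11 to 0.012, ATP5MC3 -0.069 to 0.015, SDHA -0.029 to 0.014, SDHD -0.01 to 0.093, CYC1 -0.0082 to 0.103, NDUFAB1 -0.015 to 0.069, ETFA -0.019 to 0.028, ETFB -0.013 to 0.094, ESRRA -0.054 to 0.032, TTR -1.903 to 0.527, KRT8 -0.022 to 0.035 and DCN -0.362 to 0.477. None of these genes passed the test between the groups, and no named gene that passed it changed sign in a setting tried. Over the named genes and settings, 1062 values kept their direction and their side of the threshold, 52 lost a call, 26 gained one and 58 changed sign. Depth limits COX6B2, which had 507 counts over all samples, and the other tested members had at least 4103.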

Other observations

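The assembly factors held further rises among genes chosen after their values were seen. For complex I, DMAC1, which works on the distal membrane arm, had 24.7, 25.8 and 26.8 CPM in the control samples and 31.2, 31.8 and 33.0 CPM in the knockdown samples (log2 fold change 0.31, adjusted p = 0.0052 by edgeR). TIMMDC1, a factor of the membrane arm, had 51.5, 53.2 and 53.5 CPM in the control samples and 60.1, 59.0 and 59.5 CPM in the knockdown samples (0.17, adjusted p = 0.0079). For neither gene did the groups overlap, and both calls held with each sample left out. NDUFAF8 and TMEM186 were called as well, at 0.33 (adjusted p = 0.025) and 0.34 (adjusted p = 0.043), and their calls were lost with single samples left out, with adjusted p up to 0.10 and 0.15. For complex III, UQCC1, which works with newly made cytochrome b, had 57.3, 59.0 and 58.0 CPM in the control samples and 64.9, 65.4 and 70.3 CPM in the knockdown samples (0.20, adjusted p = 0.0072), and the call held with each sample left out. LYRM7 was called at 0.24 (adjusted p = 0.028), with adjusted p up to 0.11 when a sample was left out.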
